A study of Mus musculus with 8 samples.

Results

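Rhox5, Rhox6, Rhox9, Syna, Synb, Gcm1, Flt1, Cited1 and Tpbpa are genes of the mouse placental trophoblast. These 9 genes were looked up by symbol in a table of 24888 genes counted in 8 RNA sequencing libraries. A row was found for 8 of them, and Rhox5 matched no symbol and is not analysed here. Of the 8, 7 had at least 20 counts in 1 library, and Tpbpa had 0 counts in every library. For comparison, 19798 genes of the table had at least 1 count.

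All 8 libraries came from E14 mouse embryonic stem cells (ESC), with 1 library per group. ESC were grown in serum with LIF, CHIR99021 and PD0325901, and expanded potential stem cells (EPSC) were derived from them over 5 passages in LIF with CHIR99021, PD0325901, JNK Inhibitor VIII, SB203580, A-419259 and XAV939. Both cell states were sequenced untreated and after 3 days with T0901317 (T09), an agonist of the liver X receptors, at a dose labelled 1 uM/mL, from which the concentration cannot be told. The other 4 libraries were blastoids, stem cell aggregates that model the blastocyst, grown from EPSC in media with FGF4, heparin and CHIR99021 to which BMP4 and A83-01 were added after the first day. For 2 of them EPSC were transfected with siRNA against Nr1h2 (siNr1h2), the gene of a liver X receptor, or with non-targeting siRNA (siNT), and harvested 48 hours later as day 2 blastoids. The remaining 2 were Type I and Type III blastoids, picked by hand on day 5 and labelled as derived from T09-treated EPSC, with no dose or duration given. Their titles carry Gd for Type I and Bad for Type III, and the criteria by which they were picked are not given in the sources used here. Only the day 2 blastoids were transfected, and only the day 5 blastoids were picked by type and labelled as derived from T09-treated EPSC. Day, transfection, T09 and picking therefore cannot be told apart where day 2 and day 5 levels differ. Blastoids are bulk samples of mixed cells, so more cells of a type and more RNA per cell cannot be told apart in any value below.

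Trophoblast descends from the trophectoderm, the outer layer of the blastocyst, and forms the exchange surface and the hormone-making part of the placenta. In the mouse labyrinth, the exchange zone, trophoblast cells fuse into 2 syncytial layers. Syna and Synb encode the syncytins that fuse them, and Gcm1 encodes a transcription factor needed for the branching of the labyrinth and for the inner of these layers. Tpbpa marks the spongiotrophoblast, which lies outside the labyrinth. Rhox6 and Rhox9 are homeobox genes of an X-linked cluster active in placenta and gonads, Cited1 encodes a transcriptional cofactor that lacks a DNA-binding domain, and Flt1 encodes a receptor for the growth factors VEGF and placental growth factor (PlGF).

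Total counts ran from 24666260 to 40781415 per library. Levels are given in CPM, counts relative to the library total scaled by edgeR's TMM factors, and 0 counts allow a level of up to 0.0741 to 0.114 CPM, the value of 3 counts. Nr1h2, the target of the siRNA, stood at 37.7 CPM in the siNr1h2 library and 53.9 in siNT, or 70.0% of the control (95% interval 64.9 to 75.6%). It was between 52.6 and 92.0 CPM in the other 6 libraries. The LXR target Abca1 was at 51.0 and 340 CPM in ESC without and with T09, and at 18.3 and 211 CPM in EPSC. In blastoids Abca1 was at 3.40 CPM in siNT, 5.07 in siNr1h2, 207 in Type I and 5.38 in Type III, so the Type III level was below that of untreated EPSC although both types are labelled as derived from T09-treated cells. All intervals here are 95% intervals for counting error only, because no group had a replicate, and without molecular identifiers several reads may come from 1 molecule.

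Rhox6 and Rhox9 are near copies of each other, and their sequences bear on how far their counts can be told apart. In the GENCODE transcripts of GRCm38, both coding sequences were 681 bases long, on opposite strands of chromosome X, and 617 bases (90.6%) were identical. Of the 961 stretches of 50 bases in Rhox6 transcripts, 159 were also found in Rhox9 and none in any other gene. The longest identical run covered coding bases 167 to 327, so a read of 50 bases inside it has no letter that assigns it to one gene. The sequences also diverge enough in places to be separated, most in the 90 coding bases from 373 to 462, where capitals mark the 22 bases that differ. How reads that match both genes were counted is not given in the sources used here.
Rhox6 and Rhox9, identical run: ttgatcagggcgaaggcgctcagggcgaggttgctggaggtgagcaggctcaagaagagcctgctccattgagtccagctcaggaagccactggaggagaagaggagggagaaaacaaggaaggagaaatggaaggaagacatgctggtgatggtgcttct
Rhox6, most different window: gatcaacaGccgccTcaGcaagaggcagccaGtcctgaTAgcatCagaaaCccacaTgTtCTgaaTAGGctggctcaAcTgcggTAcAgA
Rhox9, most different window: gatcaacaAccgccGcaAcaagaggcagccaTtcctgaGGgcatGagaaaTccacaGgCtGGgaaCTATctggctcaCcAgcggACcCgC

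Rhox6 had 42 counts (1.27 CPM) in ESC and 24 (0.670) in T09-treated ESC, 164 (4.29) in EPSC and 144 (3.56) in T09-treated EPSC. It had 143 counts (3.63 CPM) in siNT and 79 (3.01) in siNr1h2 day 2 blastoids, then 859 (23.9) in Type I and 1307 (39.8) in Type III day 5 blastoids. The level thus came in 3 steps, lowest in the ESC libraries, higher in the EPSC and day 2 libraries, where neighbours in order of level overlapped within counting error, and highest on day 5. Rhox9 had 45 counts (1.36 CPM) in ESC, 26 (0.725) in T09-treated ESC, 137 (3.59) in EPSC and 124 (3.06) in T09-treated EPSC. In blastoids it had 98 counts (2.49 CPM) in siNT, 46 (1.75) in siNr1h2, 279 (7.77) in Type I and 758 (23.1) in Type III. Rhox9 came in a like order, except that its siNr1h2 level also overlapped that of ESC. For both genes Type III lay above Type I, and untreated ESC above T09-treated ESC. The number of Rhox6 counts per Rhox9 count was 0.933 in ESC, 0.923 in T09-treated ESC, 1.20 in EPSC, 1.16 in T09-treated EPSC, 1.46 in siNT and 1.72 in siNr1h2. It was 3.08 (2.69 to 3.54) in Type I and 1.72 (1.58 to 1.89) in Type III, and those 2 intervals did not overlap.

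The 2 genes are part of a cluster of 30 Rhox symbols in the table, and their share of its counts was much higher in the day 5 libraries than in the others. Their share was 31.8% of all Rhox counts in ESC, 28.1% in T09-treated ESC, 25.4% in EPSC, 23.1% in T09-treated EPSC, 36.1% in siNT and 34.3% in siNr1h2. In day 5 blastoids it was 95.5% (94.1 to 96.6%, exact binomial) in Type I and 96.2% (95.3 to 97.0%) in Type III. Elsewhere the cluster was mostly Rhox1 and Rhox13. Rhox13 had 13 counts in ESC, 29 in T09-treated ESC, 572 in EPSC, 569 in T09-treated EPSC, 306 in siNT, 187 in siNr1h2 and 48 in each day 5 library. Rhox1 had 150, 88, 165 and 182 counts in the stem cell libraries in that order, 96 in siNT, 25 in siNr1h2, 0 in Type I and 10 in Type III. The 8 Rhox2 copies together had 96 counts in EPSC and 81 in T09-treated EPSC against 0 to 4 in the other libraries. Near-identical copies such as these may trade counts, so single Rhox2 values are uncertain.

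**Figure D1:**
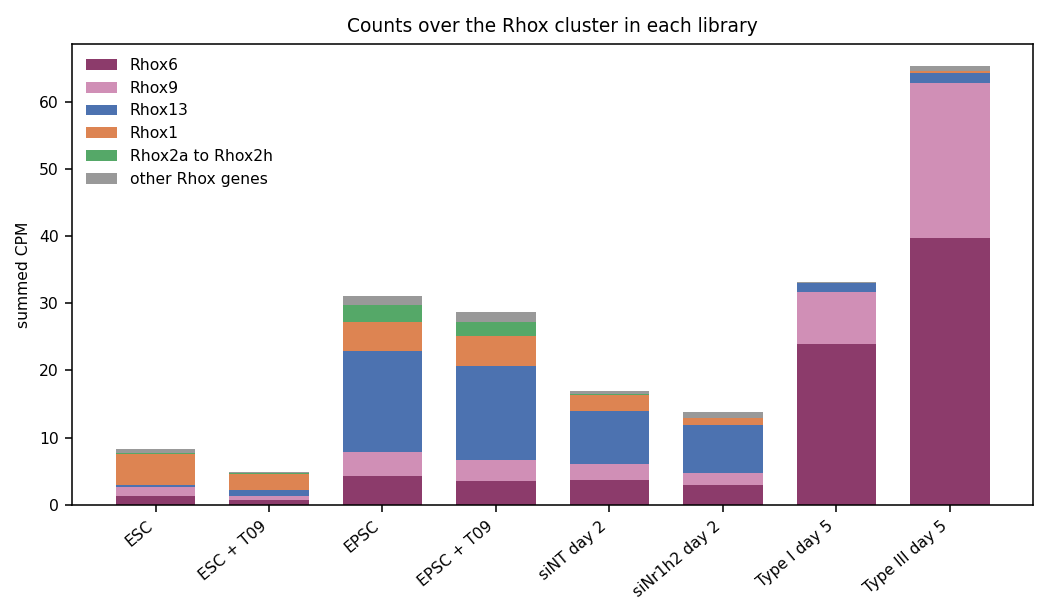
Summed level of the Rhox cluster in each library, in CPM on a linear axis, with 1 bar per library split into Rhox6, Rhox9, Rhox13, Rhox1, the 8 Rhox2 copies and all other Rhox genes. Rhox6 and Rhox9 fill 95.5% and 96.2% of the day 5 bars and between 23.1% and 36.1% of the others.

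Of the genes of the syncytial layers, Gcm1 was counted on day 2 and day 5, Synb only on day 5 apart from 1 count, and Syna at low levels throughout. Gcm1 had 3 counts (0.0904 CPM) in ESC, 5 (0.140) in T09-treated ESC, and 16 each in EPSC (0.419) and T09-treated EPSC (0.395). It had 201 counts (5.11 CPM) in siNT, 77 (2.94) in siNr1h2, 118 (3.29) in Type I and 182 (5.54) in Type III. All 4 blastoid libraries lay above all 4 stem cell libraries. Among blastoids, Type III and siNT overlapped at the top, and Type I and siNr1h2 overlapped below them.

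Syna encodes syncytin-A, which fuses the outer syncytial layer through the receptor Ly6e. It had 7, 5, 3 and 6 counts in ESC, T09-treated ESC, EPSC and T09-treated EPSC, or 0.0786 to 0.211 CPM. In blastoids Syna had 23 counts (0.584 CPM) in siNT, 2 (0.0763) in siNr1h2, 25 (0.697) in Type I and 26 (0.791) in Type III. The siNT, Type I and Type III levels overlapped, and the siNr1h2 level overlapped those of the stem cells. Ly6e stood at 78.7 to 113 CPM in the stem cell libraries, 39.6 in siNT, 29.7 in siNr1h2, 16.5 in Type I and 19.2 in Type III, so it was lower in every blastoid library than in every stem cell library. In siNr1h2 over siNT both had ratios below 1, with a log2 ratio of -0.41 for Ly6e that was not called.

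Synb encodes syncytin-B of the inner syncytial layer. It had 56 counts (1.56 CPM) in Type I and 137 (4.17) in Type III blastoids, 1 count (0.0279 CPM) in T09-treated ESC and 0 in the other 5 libraries. Synb was therefore seen only once outside the day 5 blastoids. In the GRCm38 transcripts all 1805 of its coding stretches of 50 bases are also in another gene model. Gm27179, which has no row in the table, holds 2968 of all 4006 Synb stretches. The syncytins themselves shared no such stretch, with 73.6% identity over aligned coding bases and a longest identical run of 30 bases, so a stretch of 50 bases belongs to 1 of them at most.

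Flt1 and Cited1 had more counts than any other of the genes on day 5, with no regard to length. Flt1 had 16 counts (0.482 CPM) in ESC, 31 (0.865) in T09-treated ESC, 27 (0.707) in EPSC and 12 (0.296) in T09-treated EPSC. It had 388 counts (9.86 CPM) in siNT and 293 (11.2) in siNr1h2, then 12203 (340.001) in Type I and 6510 (198) in Type III. The levels fell into 3 separate ranges, stem cells below day 2 and day 2 below day 5, and the day 2 pair overlapped. Cited1 had 121 counts (3.65 CPM) in ESC and 132 (3.68) in T09-treated ESC, but 23 (0.602) in EPSC and 26 (0.642) in T09-treated EPSC. Its blastoid counts were 932 (23.7 CPM) in siNT, 674 (25.7) in siNr1h2, 13874 (387) in Type I and 9657 (294) in Type III. Cited1 thus had 4 ranges, EPSC lowest, then ESC, day 2 and day 5, and neighbours within each of the first 3 pairs overlapped.

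Tpbpa had 0 counts in all 8 libraries, so its level was below the limit set by 3 counts in each. The other spongiotrophoblast and giant cell genes were close to 0 as well. Of 47 listed genes, among them 25 prolactin family, 12 pregnancy-specific glycoprotein and 8 placental cathepsin genes, 38 had 0 counts in every library. The highest single count was 16, and the 47 genes together had 5 to 22 counts per library. The prolactin family, which includes the placental lactogens of giant cells, had 24 of 25 genes at 0 throughout. None of the 47 reached the 20 counts needed for a comparison.

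**Figure D2:**
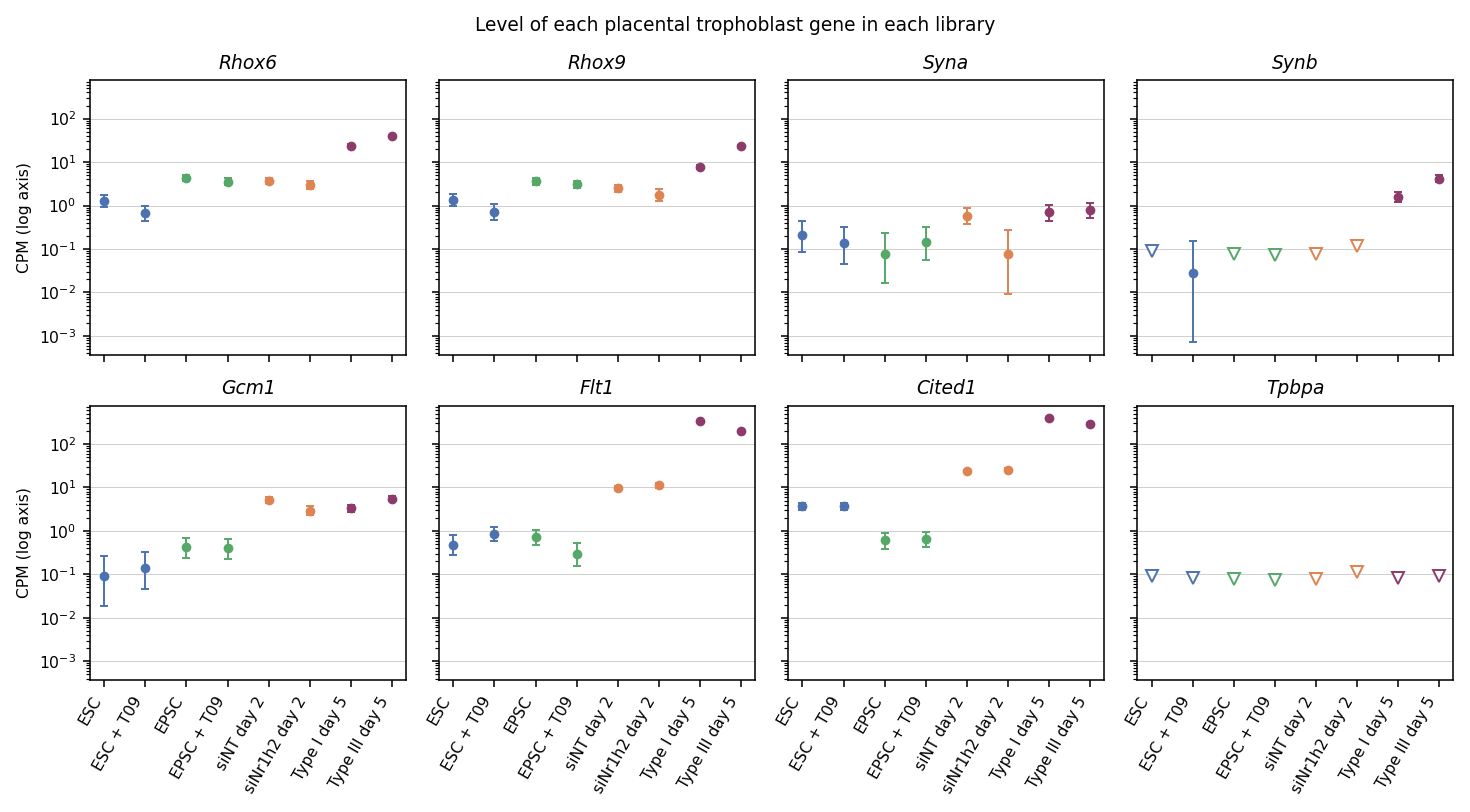
Level of each gene in each library in CPM on a log axis, 1 panel per gene, with points for the counts and bars for the 95% exact Poisson interval, and open triangles at the value of 3 counts where a library had 0. Flt1 and Cited1 are higher in the day 2 libraries than in the stem cells, and higher again in the day 5 libraries. Synb is seen on day 5 with 56 and 137 counts, and Tpbpa is at 0 in every library.

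Levels of different genes can be compared only per length, and here the length joins the exons of every annotated transcript of a gene. It was 13504 bases for Flt1, 2488 for Rhox9 and 1010 for Rhox6. Which transcripts were made was not tested. The order of genes below depends on these lengths and on how reads shared between genes were counted. Per kilobase of exon (GRCm38 lengths), Type I blastoids held 220 CPM of Cited1, 25.2 of Flt1, 23.7 of Rhox6, 3.12 of Rhox9, 1.59 of Gcm1, 0.385 of Synb and 0.344 of Syna. In Type III blastoids the levels per kilobase were 167 for Cited1, 39.4 for Rhox6, 14.7 for Flt1, 9.27 for Rhox9, 2.68 for Gcm1, 1.03 for Synb and 0.390 for Syna. Cited1 led in both, and Flt1 and Rhox6 changed places.

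Other cell types moved with these levels. The 8 trophectoderm markers summed to 14.3 to 52.4 CPM in the stem cell libraries, 189 and 184 in siNT and siNr1h2 and 1343 and 1483 in Type I and Type III. The day 5 sums are mostly Krt8 (717 and 754 CPM) and Krt18 (553 and 648). Other members went otherwise, with Gata3 at 2.51 CPM in Type I against 3.19 in T09-treated EPSC, and Eomes at 13.0 and 14.8 on day 5 against 18.5 and 22.2 in the ESC libraries. All 8 were counted in each blastoid library, while Elf5 was at 0 in both EPSC libraries and at 13 counts or fewer elsewhere. The 7 primitive endoderm markers, all counted in every library, summed to 8.84 to 42.5 CPM in stem cells, 1912 and 1786 on day 2 and 4582 and 3486 on day 5. The 6 pluripotency markers summed to 3674 to 5364 CPM in stem cells, 1846 and 1778 on day 2 and 427 and 761 on day 5. The 2-cell-like markers, 4 of 5 of which had a row, summed to 1.98 to 16.6 CPM in stem cells, 61.3 and 69.8 in siNT and siNr1h2 and 7.36 and 18.8 in Type I and Type III. The part of trophectoderm, primitive endoderm, pluripotent or 2-cell-like cells in the levels of any single gene was not tested. Endothelium, where Flt1 is also known to act, had 4 to 6 of its 6 markers counted per library, with sums of 130 to 165 CPM in stem cells, 96.8 and 102 on day 2 and 19.9 and 34.9 on day 5. That sum follows Pecam1, which was at 127 to 157 CPM in stem cells and at 4.51 and 15.5 in Type I and Type III. By the rule for calls given below, 3 of 5 endothelial markers were higher and 1 lower in Type I against T09-treated EPSC (median log2 ratio 2.01). Of all genes, 22.7% were called higher and 18.1% lower there. In Type III 4 were called higher and 1 lower (median 1.97), against 21.7% and 16.0% of all genes. Cdh5 and Kdr, with 6 and 8 counts in T09-treated EPSC, could only be called higher. Cdh5 had 117 counts in Type I and 169 in Type III against 6, Tek 341 and 305 against 94, and Emcn was at 0 in 7 libraries and at 4 counts in Type III. The part of endothelial cells in the Flt1 level was not tested. The 5 fibroblast markers summed to 1.75 to 9.49 CPM in any library.

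Libraries were then compared in pairs. A gene was called higher or lower where the log2 ratio, formed with a prior count of 2, was at least 2-fold, the exact conditional interval excluded a ratio of 1 and 1 library had at least 20 counts. A gene with under 20 counts in one library enters through the other, where it is higher, and can be called in that direction alone. With 1 library per group, a call compares those libraries and carries no p-value. The comparisons share libraries, so their values are set side by side and not treated as independent of each other.

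The question of how the EPSC state differs from ESC could be asked with and without T09. Rhox6 and Rhox9 were higher in EPSC, Cited1 was lower, and Gcm1 was too thinly counted for a call. In EPSC over ESC, 2 of the 4 genes with enough counts were called higher and 1 lower, against 9.58% of all genes called higher and 8.05% lower. The log2 ratios were 1.72 (1.27 to 2.29) for Rhox6, 1.37 (0.91 to 1.92) for Rhox9, 0.50 (-0.39 to 1.54) for Flt1 and -2.49 (-3.31 to -1.95) for Cited1. In T09-treated EPSC over T09-treated ESC, 2 of 4 were called higher and 2 lower, against 8.35% and 9.79% of all genes. Here the log2 ratios were 2.32 (1.78 to 3.10) for Rhox6, 2.00 (1.46 to 2.75) for Rhox9, -2.43 (-3.19 to -1.90) for Cited1 and -1.39 (-2.64 to -0.54) for Flt1. Flt1 was thus called lower only between the treated libraries, on 12 against 31 counts, where no other call was possible for it. That the pairs differ for Flt1 was not tested.

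The 4 stem cell libraries cross state with treatment and were fitted together with edgeR's quasi-likelihood test. The fit had 1 residual degree of freedom and Benjamini-Hochberg adjustment over 14477 genes. Its residual is how far the state difference changes with T09, with spread shared across genes. The labels show no separate derivations of EPSC, so the p-values do not measure variation between derivations. Of the 5 genes that passed the filter on low counts, 2 rose and 1 fell in EPSC, against 14.3% of all genes tested that rose and 14.5% that fell. Rhox6 rose by 2.05 on the log2 scale (SE 0.338, adjusted p = 0.00186, higher in EPSC in 2 of 2 pairs). Rhox9 rose by 1.71 (SE 0.350, adjusted p = 0.00580, also 2 of 2 pairs). Cited1 fell by 2.56 (SE 0.351, adjusted p = 0.000638, 2 of 2 pairs). Gcm1, with 3 to 16 counts, had a fitted log2 change of 1.78 (SE 0.798, adjusted p = 0.128), and Flt1 one of -0.48 (SE 0.662, adjusted p = 0.626). Neither passed the test. Syna, Synb and Tpbpa were below the filter.

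Around these genes, 3 of 5 other Rhox genes rose in EPSC by the fit and 0 fell, against 14.3% and 14.5% of all genes tested. Rhox13 rose by 4.59 (adjusted p = 1.11e-05 by edgeR's quasi-likelihood test), from 13 and 29 counts in the ESC libraries to 572 and 569. Rhox2b, with 0 counts in both ESC libraries against 38 and 19, and Rhox2c, with 1 and 0 against 17 and 27, rose too, by a size that counts so near 0 do not fix. Of 11 trophectoderm and trophoblast stem cell transcription factors, 3 rose and 7 fell, with a median log2 change of -1.31 against 0.00 over all genes tested. Cdx2, which sets up the trophectoderm, fell by 5.44, Msx2 fell by 4.29, Gata2 fell by 2.75 and Eomes fell by 2.45. The 3 that rose were Gata3, by 1.47, Id2, by 1.16, and Tfap2c, by 0.55. Of 14 syncytiotrophoblast and labyrinth genes, 0 rose and 5 fell, among them the lactate transporter Slc16a3, which fell by 2.46. Of 11 VEGF ligands, receptors and hypoxia factors, 2 rose and 2 fell, near the shares over all genes. The VEGF receptor Kdr fell by 3.86 and the co-receptor Nrp2 by 2.87, while the lymphatic receptor Flt4 rose by 1.59 and the hypoxia factor Epas1 by 1.66. Of 9 imprinted and X-linked placental genes, 1 rose and 1 fell, also near those shares. They were Plac8, which rose by 2.35, and Peg10, which fell by 0.49. Of the relatives of Cited1 and Gcm1, Cited4 fell by 2.96, and Cited2 and Gcm2 had fitted changes of 0.25 and -0.29 that did not pass. Marker lists moved with the state as well. In EPSC over ESC, 5 of 6 primitive endoderm markers were called higher (median log2 ratio 2.66; Gata6 went from 0.603 to 8.51 CPM), and 4 of 4 2-cell-like markers (median -2.69) and 2 of 5 trophectoderm markers were called lower. In that pair 9.58% of all genes were called higher and 8.05% lower. The 2-cell-like markers summed to 16.6 and 8.06 CPM in ESC and T09-treated ESC and to 2.15 and 1.98 in the EPSC libraries. The part of these cells in the changes was not tested.

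T09 was asked about in ESC, in EPSC and in the joint fit, and 1 gene was called in 1 of the states. In EPSC, 0 of 4 genes were called higher and 1 lower, against 0.895% and 3.29% of all genes. That was Flt1, at 12 against 27 counts, with a log2 ratio of -1.13 (-2.37 to -0.22). Flt1 had enough counts only in untreated EPSC, so no other call was possible for it. With an assumed biological variation of 0.2 in place of counting error alone, 0 genes were called. The other log2 ratios were -0.27 (-0.60 to 0.06) for Rhox6, -0.22 (-0.59 to 0.13) for Rhox9 and 0.09 (-0.77 to 0.97) for Cited1. In ESC, 0 of 4 were called, against 1.39% of all genes called higher and 2.53% lower. The log2 ratios in ESC were -0.86 (-1.71 to -0.16) for Rhox6, -0.85 (-1.66 to -0.18) for Rhox9, 0.77 (-0.07 to 1.81) for Flt1 and 0.01 (-0.35 to 0.38) for Cited1. The Rhox intervals excluded a ratio of 1 while the ratios stayed under 2-fold. In the joint fit, edgeR's quasi-likelihood test passed 0 of the 5 genes tested for T09, against 0.0898% of all genes that rose and 0.0138% that fell, and none had an unadjusted p under 0.05. Their fitted log2 changes were -0.53 (SE 0.331) for Rhox6, -0.51 (SE 0.344) for Rhox9, -0.16 (SE 0.660) for Flt1, 0.14 (SE 0.770) for Gcm1 and 0.04 (SE 0.340) for Cited1. By edgeR's quasi-likelihood test with Benjamini-Hochberg adjustment the p-values ran from 0.888 to 0.996, and DESeq2 and limma-voom also passed 0 of them. No gene of the placental lists passed for T09 in the fit either. Between single pairs, the lists held calls in EPSC for Gata2 (log2 ratio 1.02) and Pgf (1.65), higher, and Rhox2b (-1.01), Msx2 (-1.42), Igf2 (-1.26) and Slc16a3 (-1.25), lower. Single Rhox2 values are uncertain, and the 8 Rhox2 copies together had 81 counts in T09-treated EPSC against 96 in EPSC. In ESC the calls were Slc16a3 (1.08), H19 (1.16) and Slc22a18 (2.51), higher, and Gata3 (-2.29) and Cited4 (-1.14), lower. Slc16a3 was thus called in opposite directions, and that difference was not tested.

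In day 2 control blastoids over EPSC, 4 of 6 genes were called higher and 0 lower, against 14.5% of all genes called higher and 11.3% lower. Transfection, aggregation, medium and time all separate these libraries and cannot be told apart. Gcm1 and Syna had under 20 counts in EPSC, so only a call of higher was possible for them and the count of 4 is a description. The log2 ratios were 5.18 (4.70 to 5.96) for Cited1, 3.71 (3.24 to 4.42) for Flt1, 3.45 (2.87 to 4.44) for Gcm1 and 2.29 (1.17 to 5.27) for Syna, the last on 23 against 3 counts. Markers of other cells moved in the same comparison, with 7 of 7 primitive endoderm markers (median log2 ratio 4.54), 6 of 7 trophectoderm markers (3.08) and 4 of 4 2-cell-like markers (4.84) called higher and 4 of 6 pluripotency markers called lower, and their part was not tested. Rhox6 at -0.24 (-0.58 to 0.09) and Rhox9 at -0.52 (-0.92 to -0.14) were not called. Trophectoderm and trophoblast stem cell factors had 8 of 12 called higher and 0 lower, with a median log2 ratio of 2.44 against -0.04 over all genes. Cdx2 went from 2 to 1239 counts, Hand1 from 0 to 232 and Gata2 from 32 to 1400. Imprinted and X-linked placental genes had 8 of 10 higher and 0 lower (median 2.87), syncytiotrophoblast and labyrinth genes 5 higher and 2 lower of 16 (median 0.63), and the VEGF list 5 higher and 2 lower of 11 (median 0.40). Among the ligands of Flt1, Pgf had 45 counts against 5 and was called higher, and Vegfa had 1051 against 2999 and was called lower.

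The siNr1h2 and siNT blastoids addressed what a partial loss of Nr1h2 does on day 2. Of 6 genes, 0 were called higher and 1 lower, against 1.49% and 2.17% of all genes. The 1 was Syna, with 2 against 23 counts and a log2 ratio of -2.23 (-6.07 to -0.92). Syna had enough counts only in siNT, so no other call was possible for it. Gcm1, with 77 against 201 counts, had a log2 ratio of -0.79 (-1.20 to -0.41), which excluded a ratio of 1 and was under 2-fold. The log2 ratios were -0.49 (-1.04 to 0.01) for Rhox9, -0.27 (-0.69 to 0.14) for Rhox6, 0.18 (-0.04 to 0.40) for Flt1 and 0.12 (-0.03 to 0.26) for Cited1. Of the related genes, Rhox1 had 25 against 96 counts, Pgf 9 against 45 and Cited4 8 against 31, and all 3 were called lower. No gene of the trophectoderm, syncytiotrophoblast or imprinted lists was called. The 8 trophectoderm markers had 0 calls among the 7 with enough counts.

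Against T09-treated EPSC, all 7 counted genes were called higher in both types of day 5 blastoid. In Type I the background was 22.7% of all genes called higher and 18.1% lower, and in Type III 21.7% and 16.0%. Both types are set against the same EPSC library, from which they also differ in aggregation, medium and time. Flt1 was 1147-fold higher in Type I (656 to 2220), resting on 12 counts in the EPSC library, and 668-fold in Type III (382 to 1293). Cited1 was 602-fold higher in Type I (411 to 922) and 457-fold in Type III (312 to 700.5). Synb, at 0 in the EPSC library, was at least 21.1-fold higher in Type I and at least 56.2-fold higher in Type III when set against the floor of 3 counts. The lower ends of its intervals were 16.6-fold and 45.1-fold. Gcm1 was 8.32-fold higher in Type I (4.91 to 15.0) and 14.0-fold in Type III (8.40 to 25.0). Rhox6 was 6.73-fold higher in Type I (5.63 to 8.08) and 11.2-fold in Type III (9.40 to 13.4). Rhox9 was 2.54-fold higher in Type I (2.05 to 3.16) and 7.53-fold in Type III (6.22 to 9.18). Syna, from 6 counts, was 4.70-fold higher in Type I (1.88 to 14.0) and 5.34-fold in Type III (2.15 to 15.9). Flt1, Gcm1, Syna and Synb had under 20 counts in the EPSC library and entered only through the day 5 libraries, so a call of lower was not possible for them and the count of 7 is a description. Rhox6, Rhox9 and Cited1 had enough counts in either. Tpbpa is not among the genes compared. In Type I and Type III, 7 of 7 primitive endoderm markers and 6 of 7 trophectoderm markers were called higher and 5 of 6 pluripotency markers lower, and 3 and 4 of 4 2-cell-like markers were called higher, and their part in these ratios was not tested.

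**Figure D3:**
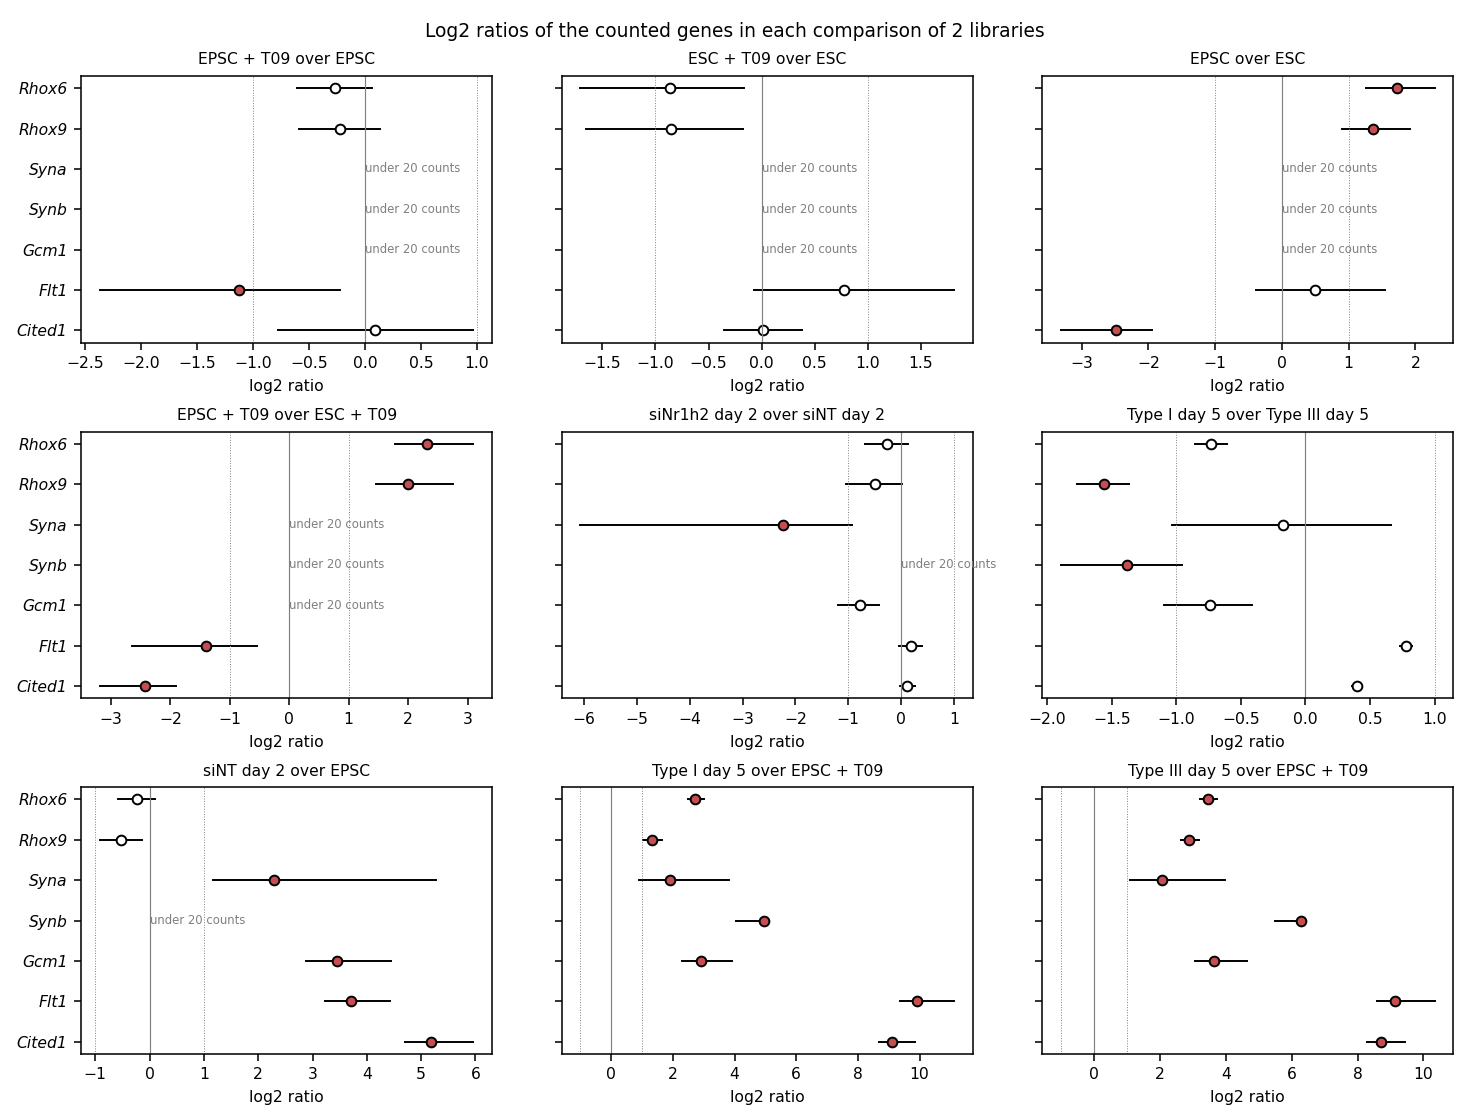
Log2 ratio of each counted gene in each of the 9 comparisons of 2 libraries, with bars for the 95% exact conditional interval, filled points for genes called, open points for those not called and dotted lines at 2-fold; an interval against 0 counts has no upper end, so its bar is drawn only to the left. All 7 points are filled in both day 5 panels, and 1 is filled in the panel of T09 in EPSC.

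Among the other 28 Rhox genes, only 5 had enough counts on day 5 or in T09-treated EPSC, and all 5 were called lower in both types. Rhox13 had 48 counts in each type against 569, and the other 4, Rhox1, Rhox2c, Rhox7a and Rhox10, had enough counts only through the EPSC library, so that no other call was possible for them. Rhox genes below the minimum did not all go that way, such as Rhox4a with 10 counts in Type III against 4 and Rhox12 with 5 against 0. Trophectoderm and trophoblast stem cell factors had 7 higher and 1 lower of 12 in Type I (median 1.86) and 8 higher and 1 lower of 12 in Type III (median 1.66). Over all genes, 22.7% were called higher and 18.1% lower in Type I, and 21.7% and 16.0% in Type III. Cdx2 had 1729 counts in Type I and 1017 in Type III against 1, Msx2 1274 and 804 against 7, and Hand1 101 and 535 against 2. These 3 had under 20 counts in the EPSC library, so a call of lower was not possible for them. The 1 factor called lower in each type was Tfap2c, with 701 and 925 counts against 4229.

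Syncytiotrophoblast and labyrinth genes had 11 higher and 3 lower of 17 in Type I (median 2.01) and 10 higher and 3 lower of 16 in Type III (median 2.13). Of all genes, 22.7% were called higher and 18.1% lower in Type I, and 21.7% and 16.0% in Type III. The calls of lower in this list were thus near the share over all genes. The gap junction gene Gjb2, part of the channel between the syncytial layers, had 421 counts in Type I and 622 in Type III against 8. Pparg, a nuclear receptor needed for the labyrinth, had 65 and 198 against 3, and Ovol1 61 and 66 against 1. Ly6e, the receptor of Syna's product, was called lower in both, with log2 ratios of -2.74 and -2.52.

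Of the VEGF list, 5 were higher and 1 lower of 11 in Type I (median 0.96), and 6 higher and 1 lower in Type III (median 1.00). The shares over all genes were 22.7% higher and 18.1% lower in Type I, and 21.7% and 16.0% in Type III. The co-receptor Nrp1 had 2385 counts in Type I and 859 in Type III against 19, and Kdr 58 and 112 against 8. The ligand Vegfa had 4781 counts in Type I and 4395 in Type III against 1978, and Pgf had 36 counts in each against 21. Vegfc was the 1 gene of the list called lower in each, with 63 and 78 counts against 787. Imprinted and X-linked placental genes had 8 higher and 1 lower of 10 in Type I (median 3.92) and 10 higher and 0 lower of 11 in Type III (median 3.84). The noncoding RNA H19 had 146013 counts in Type I and 158714 in Type III against 297, the growth factor gene Igf2 3116 and 3644 against 28, Plac8 2461 and 2904 against 34 and Plac1 549 and 520 against 15. Of the relatives of Cited1 and Gcm1, Cited2 and Cited4 were called higher in both types, and Gcm2 was at 0 counts in both against 54.

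**Figure D4:**
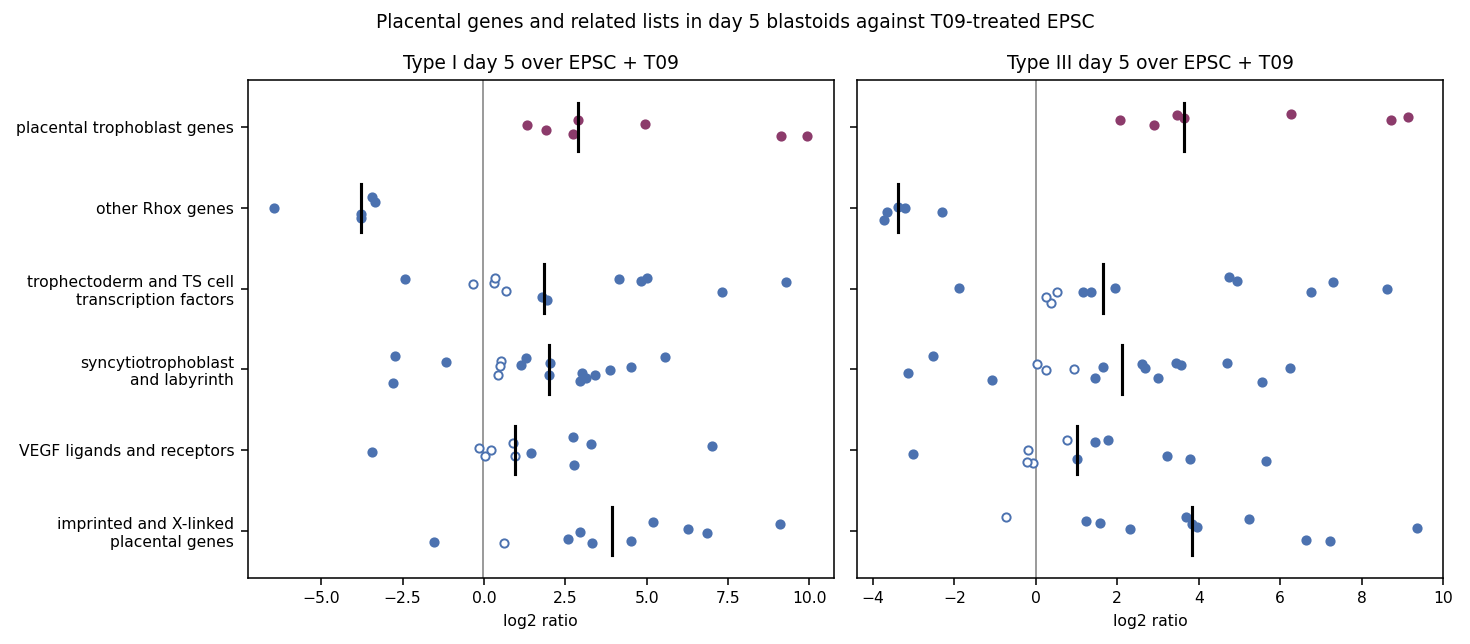
Log2 ratios of Type I (left) and Type III (right) day 5 blastoids over T09-treated EPSC for the placental trophoblast genes and for 5 related lists, with 1 point per gene with at least 20 counts in 1 library, filled where called, and a vertical line at each list's median. The 7 placental trophoblast genes lie above 0 and the 5 other Rhox genes with enough counts below 0 in both panels.

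Between the day 5 types, 0 of 7 genes were called higher in Type I and 2 lower, against 1.93% and 5.75% of all genes. The 2 were Rhox9, with a log2 ratio of -1.56 (-1.77 to -1.37), and Synb, with -1.38 (-1.89 to -0.96). Rhox6 at -0.73 (-0.86 to -0.61) and Gcm1 at -0.74 (-1.10 to -0.41) were below a ratio of 1 by less than 2-fold, and Syna was at -0.17 (-1.04 to 0.67). Flt1 at 0.78 (0.74 to 0.82) and Cited1 at 0.40 (0.36 to 0.43) were above it, also by less than 2-fold. Between these libraries, Rhox6, Rhox9, Synb and Gcm1 thus stood higher in Type III, and Flt1 and Cited1 in Type I. These differences exceed counting error only, and those of Rhox6, Gcm1, Flt1 and Cited1 were not called. With Rhox6 and Rhox9 counts summed, the log2 ratio was -0.99, just under 2-fold, so the call of Rhox9 needs the reads of the copies to be told apart. In the lists, Hand1 and Ascl2 of the trophectoderm factors and Pparg, Cebpb and Cebpa of the syncytiotrophoblast genes were called lower in Type I. Of the VEGF list, Nrp1 and Epas1 were called higher in Type I and Kdr lower. None of the imprinted and X-linked genes was called. Trophectoderm markers summed to 1343 CPM in Type I and 1483 in Type III, primitive endoderm markers to 4582 and 3486, pluripotency markers to 427 and 761 and 2-cell-like markers to 7.36 and 18.8. Called lower in Type I were 5 of 6 pluripotency, 3 of 4 2-cell-like, 2 of 7 trophectoderm and 2 of 5 endothelial markers, and 0 of 7 primitive endoderm markers were called. Their part in these ratios was not tested.

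Over the 8 libraries the log2 levels of the genes followed each other to different degrees, which is a description of 8 points that share cell source and handling in pairs. Pearson's r was 0.975 between Rhox6 and Rhox9, which share sequence, and 0.970 between Flt1 and Cited1. The lowest was 0.551, between Synb and Gcm1. Among 13118 other genes with at least 50 counts in 1 library, those most like Flt1 were Smarca2, Nrk and Nfxl1 (r = 0.998, 0.997 and 0.996), and those most like Cited1 were Stard10, Gpc3 and Cd2ap (0.998, 0.997 and 0.995). For Gcm1 they were Slc7a7, Cdh15 and Fkbp11 (0.994, 0.991 and 0.989), and for Synb Gch1, Zc4h2 and Nagk (0.989, 0.986 and 0.986). Rhox6 was most like Tpm1, Slc6a11 and Rab37 (0.991, 0.989 and 0.987), Rhox9 most like Folr1, Fxyd2 and Agbl3 (0.974, 0.969 and 0.967), and Syna most like Sh2d3c, Ppp1r17 and Card14 (0.9495, 0.945 and 0.927). How unusual such a pattern is differed widely. For Flt1, 665 genes had r over 0.95, for Cited1 402, Synb 200, Gcm1 182, Rhox6 128, Rhox9 11 and Syna 0.

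The starts of Flt1, Cited1 and Gcm1, whose levels moved most between stem cells and day 2 blastoids, differ in their content of CG pairs. The 250 bases before each start are shown from RefSeq for GRCm38, with CG pairs in capitals, at chr5:147726012-147726261 on the minus strand for Flt1, chrX:102252182-102252431 on the minus strand for the first of 3 starts of Cited1 and chr9:78051708-78051957 on the plus strand for Gcm1.
Flt1: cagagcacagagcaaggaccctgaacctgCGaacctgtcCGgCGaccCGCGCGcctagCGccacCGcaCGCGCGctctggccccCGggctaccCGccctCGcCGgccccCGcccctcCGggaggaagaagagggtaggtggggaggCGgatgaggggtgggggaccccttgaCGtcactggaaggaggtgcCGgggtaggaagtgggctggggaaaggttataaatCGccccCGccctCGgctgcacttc
Cited1: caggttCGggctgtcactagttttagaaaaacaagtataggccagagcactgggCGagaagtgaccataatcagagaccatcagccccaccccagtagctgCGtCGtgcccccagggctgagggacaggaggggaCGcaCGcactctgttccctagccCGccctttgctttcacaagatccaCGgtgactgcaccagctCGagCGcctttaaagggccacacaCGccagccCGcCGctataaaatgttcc
Gcm1: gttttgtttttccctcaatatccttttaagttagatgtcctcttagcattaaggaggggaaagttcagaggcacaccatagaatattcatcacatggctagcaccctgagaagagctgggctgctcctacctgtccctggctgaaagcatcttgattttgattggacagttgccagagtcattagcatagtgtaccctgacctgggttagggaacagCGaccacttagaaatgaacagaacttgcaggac

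The stretch before Flt1 holds 23 CG pairs, that before Cited1 13 and that before Gcm1 1. Windows of 300 bases, with the 50 bases after the start added, were available for 6 of the 9 genes and for 27025 genes in all, with a median of 7 CG pairs over 32851 windows. Fewer CG pairs than in Flt1 were found in 87.1% of windows, than in Gcm1 in 5.43%, and than in the 3 starts of Cited1 in 70.3%, 63.7% and 90.5%. On both strands of the windows, the paired AGGTCA repeat with 4 bases of any kind between its copies, the kind of element that liver X receptors bind, was found in none of the genes and in 0.0152% of all windows. Single AGGTCA, which the paired motif contains, was found once in Gcm1 and once at the third start of Cited1, and in 16.3% of all windows. CCCGCA, part of a site bound by GCM factors, was found once, at the third start of Cited1, and in 13.4% of windows, and AGATAA, which factors such as Gata2 bind, in none of the genes and in 11.2%. Such matches describe letters in these windows and are not sites of binding.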

How the data were processed

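RNA from 8 mouse libraries was counted per gene symbol by the authors, who deposited raw read counts as whole numbers, with 24888 rows and no column belonging to no sample. The submitters' processing notes name STAR, HTSeq, Cuffnorm and mm9, without versions, annotation or strand setting, so overlapping and antisense genes may share counts. Groups came from the labels. From the counts, TMM-scaled CPM with exact Poisson intervals, log2 ratios for 9 pairs of libraries and an edgeR 4.0.16 quasi-likelihood fit (R 4.3.3, filterByExpr, state plus T09, 4 libraries) were computed. The procedures were tested on simulated data. All 9 genes are named, with up to 4 genes of the largest ratio or change per list among those called, Ly6e, Vegfa, Pgf and Kdr always, and the 3 genes most like each in pattern. The genes and the 7 lists were chosen with earlier results of these data known. Nr1h2, Abca1, Gm27179, single cell type markers (Elf5, Krt8, Krt18, Gata3, Eomes, Gata6, Pecam1, Tek, Cdh5, Emcn), Rhox4a, Rhox12, Id2 and Tfap2c were named outside this rule, after their values were seen. Coding sequences and exon lengths came from GENCODE M21 and promoters from RefSeq, both GRCm38 and so another build than mm9. Identity was computed on nucleotides, since no protein table was used here. The alternatives were library totals, size factors of the DESeq2 kind, other prior counts, minimums and folds, an assumed biological variation of 0.2, no filter, DESeq2 1.42.0, limma-voom (limma 3.58.1) and Rhox6 and Rhox9 summed.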

Additional observations from a re-analysis of the deposited data

How the results depend on the processing

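Among 195 log2 ratios of single genes recomputed under an alternative, 194 kept their call or stayed uncalled, and 0 called ratios reversed. The direction of uncalled ratios was not checked. The 1 other was Rhox9 in Type I over Type III, which lost its call at -0.99 with Rhox6 and Rhox9 summed, by construction. The 3 genes past the fit for state were 3, with 2 higher and 1 lower, under every fit tried, and the number for T09 was 0 in all. Over all genes the T09 fit passed 15, but 46 without the filter and 35 with DESeq2. The count of genes called for T09 in EPSC was 1 and became 0 with at least 100 counts, at 4-fold and with an assumed biological variation of 0.2. For siNr1h2 over siNT it was 1 and became 0 with at least 100 counts. At 4-fold it went from 3 to 1 in EPSC over ESC and from 2 to 0 in Type I over Type III. The stricter thresholds remove such calls by construction. Counts of calls in the other comparisons stayed within 1.5 times. No paired analysis was possible because each group has 1 library. Leaving out a replicate was likewise not possible. Calls on under 30 counts in both libraries, those of Flt1 for T09 in EPSC and of Syna wherever it was called, rest on few reads.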
